A study of Mus musculus with 6 samples.

Results

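Sox2, Sox3, Sox4, Sox5, Sox6, Sox9, Sox11 and Sox21, the Sox transcription factors best known from neural progenitors, were followed across 2 GL261 and 4 GL261-GSCs libraries. The 8 genes were taken by symbol from the 54446 genes of the deposited count matrices, each symbol matching 1 gene. GL261 is a glioma line of mouse origin, here kept in the serum-containing medium that the labels call differentiation medium. The GL261-GSCs, whose label is glioblastoma stem cell, had a defined medium for such cells instead, and the protocol speaks of neurospheres. Both groups come from 1 line, no genetic change or drug is named, and the medium, the culture form and the labelled cell type change together, so their parts in any difference cannot be told apart. The detergent Igepal is recorded at the same concentration for every library. The labels do not say whether replicates of a group were separate cultures, so each p-value measures only the spread between these libraries.

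Sox proteins bind a short DNA motif through a shared HMG box and usually act together with a partner factor on the same enhancer. In the embryonic and adult brain the SoxB1 proteins Sox2 and Sox3 keep progenitors undifferentiated, the SoxB2 protein Sox21 counteracts them, the SoxC proteins Sox4 and Sox11 act in precursors and young neurons, the SoxD proteins Sox5 and Sox6 modulate other Sox factors in the oligodendrocyte and neuronal lineages, and the SoxE protein Sox9 acts in glial specification. Sox2 is also widely used as a marker of glioma stem cells, and its protein is one of the factors used to reprogram somatic cells.

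Promoters are shown for Sox2 and Sox4, the members with a called difference between the groups, and for Sox11 and Sox21, 2 members with no UMI (unique molecular identifier, which stands for 1 captured RNA molecule) in any library. Each sequence is the 250 bases before the gene's start in RefSeq (build GRCm38.p6), written 5′ to 3′ on the gene's strand with every CpG in capitals. They lie at chr3:34649745-34649994 (plus strand) for Sox2, chr13:28953700-28953949 (minus strand) for Sox4, chr12:27342719-27342968 (minus strand) for Sox11 and chr14:118237031-118237280 (minus strand) for Sox21. The RefSeq starts need not be those of the annotation behind the counts, and no promoter measurement was analysed here.
Sox2: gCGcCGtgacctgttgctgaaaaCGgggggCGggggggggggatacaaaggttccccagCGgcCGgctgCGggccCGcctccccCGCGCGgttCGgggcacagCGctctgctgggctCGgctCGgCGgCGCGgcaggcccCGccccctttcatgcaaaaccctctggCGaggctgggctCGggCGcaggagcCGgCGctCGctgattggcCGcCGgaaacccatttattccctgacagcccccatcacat
Sox4: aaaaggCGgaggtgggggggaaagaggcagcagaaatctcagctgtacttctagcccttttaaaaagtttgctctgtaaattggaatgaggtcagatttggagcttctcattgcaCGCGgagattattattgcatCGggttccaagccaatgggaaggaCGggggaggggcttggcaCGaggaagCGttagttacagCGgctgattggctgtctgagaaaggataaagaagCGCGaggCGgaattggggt
Sox11: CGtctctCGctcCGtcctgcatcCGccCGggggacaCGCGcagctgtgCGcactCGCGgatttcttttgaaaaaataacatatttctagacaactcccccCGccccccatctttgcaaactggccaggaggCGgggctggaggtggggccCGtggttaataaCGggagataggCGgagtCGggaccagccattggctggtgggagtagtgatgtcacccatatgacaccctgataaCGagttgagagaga
Sox21: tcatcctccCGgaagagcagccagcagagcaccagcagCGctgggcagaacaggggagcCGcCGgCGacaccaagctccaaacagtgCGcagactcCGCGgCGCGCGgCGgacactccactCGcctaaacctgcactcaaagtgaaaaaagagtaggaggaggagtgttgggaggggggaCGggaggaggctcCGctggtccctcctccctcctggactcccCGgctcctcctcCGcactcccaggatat
The Sox2 window held 27 CpGs, and 91.8% of the 27025 genes with a promoter entry held fewer, against a median of 6. Sox11 and Sox21, which had no UMI, held 17 each, more than 76.4% of genes, and Sox4 held 11, more than 64% of genes. Of the SoxD genes, the first listed start of Sox6 had 9 CpGs and that of Sox5 had 3, more than 59.3% and 29.6% of genes. Searched on both strands, the Sox-type motif ACAAAG occurred once in the Sox2 window (in 16.5% of all promoters of that length) and the octamer-type motif ATGCAAA once (in 4.06%), without overlapping, and the other Sox-type motif ACAATG did not occur there (in 11% of them). None of the 3 motifs was found in the Sox4, Sox11 or Sox21 window. The first Sox6 window held 1 ACAAAG and the Sox5 window 1 ACAATG. These are matches of letters only.

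Between 4264 and 7275 cells were called per library, with 33320530 to 79472306 UMIs in them. The median per cell was 15478 and 13652 UMIs in the GL261 libraries and 15375, 11890, 10638 and 6670 in GL261-GSCs replicates 1 to 4, and the median mitochondrial share was 1.0% and 0.953% against 1.04%, 1.11%, 1.26% and 1.35%. In GL261-GSCs replicate 4 only 41.2% of all UMIs lay in called cells, against 56.7% to 65.7% in the other libraries. Library pairs shared 32 to 59 cell barcodes, where 26.1 to 57.9 were expected by coincidence. Of the marker lists, the summed level of 5 myeloid genes was 12.9 and 13.1 CPM (UMIs of a gene in 1e6 UMIs of the library, its total scaled by the TMM factor) in GL261, nearly all of it Csf1r, and 0.192 to 0.364 CPM in GL261-GSCs, and that of 5 neuron genes was 0.215 and 0.281 against 1.26 to 78.4 CPM, the latter nearly all Syt1, with Rbfox3 at 0. The 5 endothelial genes summed to 0.895 and 1.64 CPM against 0.394 to 0.888, with Cldn5 at 0, and the 5 T cell genes to at most 0.296 CPM in any library. Of 8 genes listed for glioma stem cells 6 were tested and all 6 were called, Olig2 and Sox2 higher in GL261-GSCs and Vim, Gfap, Cd44 and Nes lower. Of all tested genes 29.9% were called. Sox2 is itself among the Sox genes followed here, and the Gfap call rests on 165 UMIs in GL261 and 3 in GL261-GSCs. The list's median log2 fold change was −1.36, and Fut4 was at 0. The part of these markers in the results below was not tested.

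Of the 8 members, 4 had enough UMIs to be tested between the groups and 4 did not. In edgeR's quasi-likelihood test across 18439 genes (Benjamini-Hochberg adjusted p under 0.05), Sox2 was higher in GL261-GSCs, Sox4 was lower, and Sox5 and Sox6 were not called. Across all genes 29.9% were called, with 15.8% of genes higher in GL261-GSCs and 14.1% lower. That split was 2920 higher and 2594 lower, and with scaling by library size it was 3491 and 2034, a scaling that puts the all-gene median at 0.18 (log2) in place of 0.04. The median log2 fold change of the 4 tested members was 0.16. Their CPM did not overlap between the groups for Sox2, Sox4 and Sox6, which was so for 56.7% of all tested genes, 28.7% with higher and 28% with lower values in GL261-GSCs. The plot of levels by library shows the 4 tested genes.

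**Figure D1:**
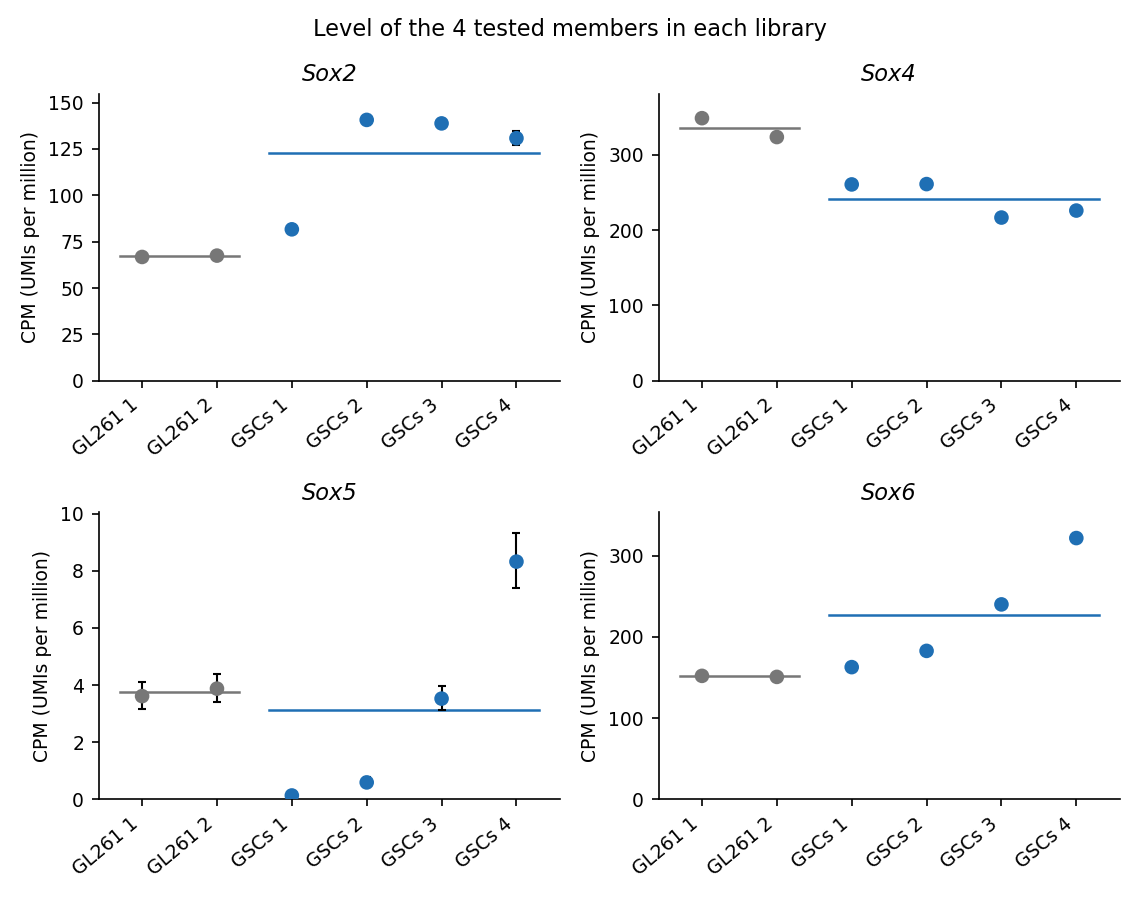
Level of Sox2, Sox4, Sox5 and Sox6 in CPM (y axis, linear, starting at 0) in the 2 GL261 libraries (grey) and the 4 GL261-GSCs libraries (blue, labelled GSCs). Points are libraries, bars are exact 95% Poisson intervals of the count (counting error only, often smaller than the point) and horizontal lines are group means. Sox2 in GL261-GSCs replicate 1 (81.7 CPM) lies nearer to GL261 than to the other GL261-GSCs libraries, and Sox5 runs from 0.136 to 8.32 CPM within GL261-GSCs.

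Of the SoxB1 genes, Sox2 (chromosome 3, 34650405 to 34652461, plus strand, mm10) was detected in all 6 libraries. Its level was 66.8 and 67.5 CPM in the GL261 libraries, from 4508 and 4075 UMIs, and 81.7, 140.6, 138.8 and 130.8 CPM in GL261-GSCs replicates 1 to 4, from 5386, 10191, 11095 and 4761 UMIs. All 4 GL261-GSCs libraries were above both GL261 libraries, and replicate 1 was well below the other 3. The means were 67.1 ± 0.517 CPM (SD, n = 2) and 123.0 ± 27.9 CPM (SD, n = 4), which gave a log2 fold change of 0.87 with an SE of 0.24 (edgeR adjusted p = 0.0334). The call is a narrow one. It was lost without either GL261 library (edgeR adjusted p = 0.187 and 0.188) and without GL261-GSCs replicate 2, 3 or 4 (0.0614, 0.0753 and 0.0511), and the adjusted p was 0.00173 without replicate 1, in leave-one-out fits.

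Median cell depth differed among the GL261-GSCs libraries, so levels were also compared in cells of 5000 to 15000 UMIs, a window chosen after the data were seen. The window held 1804 of 4808 and 2624 of 5002 called cells in GL261. In GL261-GSCs replicates 1 to 4 it held 1795 of 4264, 3950 of 5870, 4518 of 7275 and 2535 of 4512. Unlike shares of the libraries are thus compared. Median depth inside it was still unequal, at 11039 and 11762 UMIs in GL261 and 11039, 11005, 10173 and 8740 UMIs in GL261-GSCs replicates 1 to 4. In those cells Sox2 was at 75.8 and 72.1 CPM in GL261 and at 68.0, 138.8, 144.7 and 149.9 CPM in GL261-GSCs. There replicate 1 fell below both GL261 libraries, the groups overlapped and the call was lost (log2 fold change 0.76, SE 0.32, edgeR adjusted p = 0.109, with 0.00438 to 0.109 over the alternatives that kept all 6 libraries). A chromosome-wide shift stood beside the low value of replicate 1. Each GL261-GSCs library was set against the mean of the other GL261-GSCs libraries. The median of the 1021 tested genes of chromosome 3 was then −0.46 (log2) in replicate 1 and 0.16 to 0.17 in the others. Sox2 itself was at −0.74 in replicate 1 and 0.30, 0.28 and 0.16 in replicates 2, 3 and 4. The part of that shift in the Sox2 value was not tested.

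Sox2ot, a long noncoding transcript annotated on the same strand and spanning the whole of Sox2 (34104270 to 34682619), differed in the same direction. It was at 1.84 and 1.87 CPM in GL261 and at 6.02, 24.2, 44.8 and 54.0 CPM in GL261-GSCs. Every GL261-GSCs library was above both GL261 libraries, by a factor that varied 8.98-fold among them. The log2 fold change was 4.12 with an SE of 0.92 (edgeR adjusted p = 0.0163), and the call was lost with limma-voom (0.0624) and without either GL261 library (0.120 and 0.124). Because the 2 genes overlap on 1 strand, how reads in the shared stretch were divided between them is not known.

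Sox3 (chromosome X), the other SoxB1 gene, had 7 UMIs in all, every one in GL261-GSCs replicate 4, where they came from 2 cells and amounted to 0.192 CPM (95% Poisson interval 0.0773 to 0.396). The other 5 libraries had 0 UMIs in any barcode, which allows up to 0.0375 to 0.0497 CPM at 3 UMIs per library. Sox21 (chromosome 14), which opposes SoxB1 proteins, had 0 UMIs in all 6 libraries, over called cells and over all barcodes, which allows up to 0.0375 to 0.0824 CPM. A lincRNA antisense to it, Gm4675, had 4 UMIs. The counts of 0 here and below, and the limits set on them, are those of the rows as deposited, and whether these hold every count of a gene could not be checked.

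Of the SoxC genes, Sox4 (chromosome 13, 28948919 to 28953713, minus strand) was the member that was lower in GL261-GSCs. Its level was 348.5 and 323.4 CPM in GL261, from 23525 and 19523 UMIs, and 260.6, 261.0, 216.6 and 225.9 CPM in GL261-GSCs, from 17184, 18914, 17322 and 8224 UMIs. No GL261-GSCs library reached the lower GL261 library, and the GL261-GSCs values were close together, with a highest-to-lowest ratio of 1.2. The means were 335.9 ± 17.7 CPM (SD, n = 2) and 241.0 ± 23.1 CPM (SD, n = 4), which gave a log2 fold change of −0.48 with an SE of 0.14 (edgeR adjusted p = 0.0369). The sign was negative under all 18 alternatives, but the call was lost in 8 of them. Among these were scaling by library size (log2 fold change −0.33, adjusted p = 0.0997), no filter on low counts (0.0819), and leaving out GL261 replicate 1 or 2 (0.236 and 0.170) or GL261-GSCs replicate 2, 3 or 4 (0.0551, 0.0854 and 0.0545), each fitted with edgeR. In cells of 5000 to 15000 UMIs Sox4 was at 376.7 and 353.7 CPM for GL261 against 285.3, 284.3, 241.5 and 259.0 CPM for GL261-GSCs, again without overlap (log2 fold change −0.45, SE 0.13, edgeR adjusted p = 0.0335). A lincRNA antisense to Sox4, Gm26735, had 1210 UMIs.

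Sox11 (chromosome 12), the close relative of Sox4 in young neurons, had 0 UMIs in every library and over all barcodes, so of the 2 SoxC members Sox4 alone had UMIs. Sox12, the third SoxC gene and not one of the 8, was at 1.96 and 2.09 CPM in GL261 and at 8.89, 5.15, 3.10 and 3.24 CPM in GL261-GSCs. The groups did not overlap, and the log2 fold change of 1.33 (SE 0.49) was not called (edgeR adjusted p = 0.0809). It was called under 4 of 18 alternatives, with adjusted p = 0.0184 by DESeq2, 0.0334 without GL261-GSCs replicates 1 and 2 and 0.0108 without replicates 3 and 4 by edgeR. The adjusted p was 0.0108 to 0.106 over the alternatives with all 6 libraries and 0.058 to 0.304 when 1 library was left out.

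Among the 4 tested members, the SoxD genes had the widest ranges over the GL261-GSCs libraries, 61.0-fold for Sox5 and 1.98-fold for Sox6, against 1.72-fold for Sox2. Sox6 (chromosome 7, 115470872 to 116038796, minus strand), which in oligodendrocyte precursors restrains maturation, was at 151.9 and 150.7 CPM in GL261 and at 162.7, 182.7, 239.9 and 321.5 CPM in GL261-GSCs. All 4 GL261-GSCs values lay above GL261, replicate 1 by little and replicate 4 by far. The means were 151.3 ± 0.896 CPM (SD, n = 2) and 226.7 ± 71.2 CPM (SD, n = 4), and the log2 fold change of 0.58 (SE 0.28) was not called (edgeR adjusted p = 0.161, and 0.0655 to 0.435 when single libraries were left out). Without GL261-GSCs replicates 1 and 2 together, an alternative chosen after the data were seen, it was 0.91 (adjusted p = 0.00242), and without replicates 3 and 4 it was 0.20 (adjusted p = 0.175), both from edgeR.

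The order of the Sox6 values within GL261-GSCs is also that of falling cell depth and rising mitochondrial share given above. The levels of Sox5, Sox8 and Sox2ot in GL261-GSCs have that order too. Malat1, a nuclear noncoding RNA, had the same order, at 2855, 3331, 4541 and 7445 CPM in GL261-GSCs replicates 1 to 4, and stood at 4665 and 4722 CPM in GL261. Neat1, another nuclear noncoding RNA, did not have that order, at 226.6, 229.9, 212.6 and 366.5 CPM in GL261-GSCs replicates 1 to 4. Malat1 and Neat1 are in none of the gene lists and are named outside the rules given below. In cells of 5000 to 15000 UMIs the Sox6 level was 161.6 and 153.3 CPM in GL261 and 184.2, 185.1, 249.2 and 286.7 CPM in GL261-GSCs, so the order among the libraries was kept, as was that of their median depth, and the span was narrower. Malat1 in those cells was at 3596, 3284, 4693 and 6734 CPM in GL261-GSCs, with replicate 2 now lowest. The part of depth, mitochondrial share and nuclear RNA in the values of these 4 genes was not tested. The protocol names cells as well as nuclei and has a lysis step, and does not say which of them these libraries hold. Antisense transcripts within Sox6 held few UMIs, 96 for Sox6os and 85 for Gm45025.

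Sox5 (chromosome 6, 143828425 to 144781977, minus strand), the other SoxD gene, was at 3.61 and 3.88 CPM in GL261, from 244 and 234 UMIs. In GL261-GSCs it was at 0.136, 0.593, 3.53 and 8.32 CPM, from 9, 43, 282 and 303 UMIs. Replicates 1 and 2 lay below both GL261 libraries, replicate 3 beside them and replicate 4 above, so the groups overlapped and the GL261-GSCs values spanned 61.0-fold. The exact 95% Poisson intervals of those 4 levels, 0.0624 to 0.259, 0.429 to 0.799, 3.13 to 3.96 and 7.41 to 9.32 CPM, were separate. The log2 fold change between the groups was −0.27 with an SE of 1.26 (edgeR adjusted p = 0.891), and its sign turned without GL261-GSCs replicate 1 (0.15) or replicate 2 (0.10). Each of these libraries was again set against the mean of the other GL261-GSCs libraries. The median of the 977 tested genes of chromosome 6 stayed between −0.06 and 0.10 while Sox5 ran from −3.98 to 3.54 (log2). In cells of 5000 to 15000 UMIs the levels were 4.78 and 4.39 CPM for GL261 against 0.294, 0.643, 4.02 and 6.81 CPM for GL261-GSCs, in the same order. The transcripts annotated inside Sox5 had 0 to 36 UMIs each.

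Sox9 (chromosome 11), the SoxE member, had 0 UMIs in all 6 libraries and over all barcodes, at most 0.0375 to 0.0824 CPM per library. The other SoxE genes, which are not among the 8, were present. Sox10, the SoxE factor of oligodendrocyte and Schwann cells, was at 330.6 and 358.2 CPM in GL261 and at 382.2, 358.3, 304.1 and 329.2 CPM in GL261-GSCs. The groups overlapped, and the log2 fold change was 0.00 with an SE of 0.14 (edgeR adjusted p = 0.986), its sign turning under 8 of 18 alternatives. Sox8 was at 0.400 and 0.282 CPM in GL261 and at 7.05, 11, 16.8 and 22.9 CPM in GL261-GSCs, with a log2 fold change of 5.39 with an SE of 0.63 (edgeR adjusted p = 0.00136), and it was called under all 18 alternatives.

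**Figure D2:**
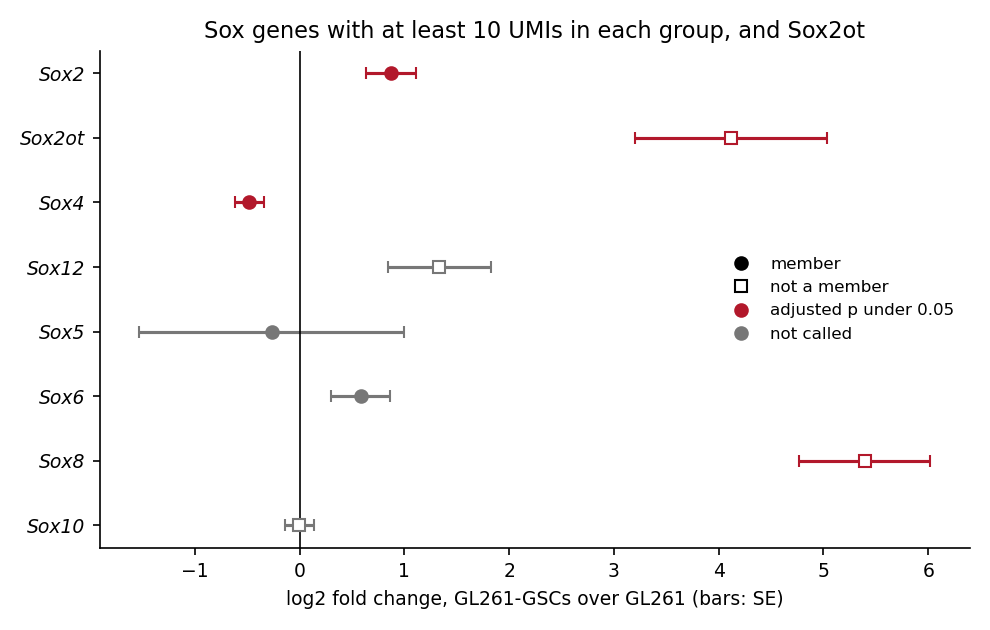
Log2 fold change of GL261-GSCs over GL261 (x axis) with its SE (bars) for the 4 tested members (circles), 3 other Sox genes and Sox2ot (open squares), from edgeR. Sox13, called lower from 3 UMIs in GL261-GSCs, is not drawn. Red marks an adjusted p under 0.05. Sox8 and Sox2ot lie far to the right of Sox2, Sox4 is the one called gene drawn to the left, and the bar of Sox5 spans 0.

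Among all 11 other Sox genes listed, 4 were tested and 2 called, Sox8 higher and Sox13 lower, with a median log2 fold change of 0.67 against 0.04 over all genes. Of all tested genes 29.9% were called. Sox13, the third SoxD gene, had 119 UMIs in the GL261 libraries and 3 in GL261-GSCs, a ratio of 79.0 with a 95% counting interval of 26.4 to 389. Sox1, Sox14, Sox17 and Sox30 had no UMI in called cells, and Sox7, Sox18 and Sox15 had 1, 2 and 9. Sox1, the third SoxB1 gene, and Sox14, the other SoxB2 gene, were thus at 0 beside Sox21 and beside a Sox3 of 7 UMIs, and Sox2 was the only SoxB gene above that count in these libraries.

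Per cell, the members were compared after each cell was thinned to 2000 UMIs, so that depth would not set the shares, and no called cell was shallower than that. With Sox2, 10.7% (exact 95% binomial interval 9.81% to 11.6%) and 10.8% of GL261 cells had a UMI, against 14.2% (13.2% to 15.3%), 24.0%, 22.6% and 22.9% of GL261-GSCs cells. All GL261-GSCs libraries were above GL261, with replicate 1 nearest to it. The share that free RNA would give, taken from barcodes of 100 to 1000 UMIs, was 0.232% to 0.284% in GL261 and 0.471% to 1.87% in GL261-GSCs, far below the measured shares. The mean difference was 10.2 percentage points (exact permutation test over 15 splits, 2-sided p = 0.133, the smallest that 2 against 4 libraries allow, and 0.222 adjusted over 5 members).

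Sox6 had a UMI in 25.6% and 24.3% of GL261 cells and in 28.8%, 33.2%, 40.8% and 52.1% of GL261-GSCs cells, with free RNA at 0.650% to 4.13%. The 4 GL261-GSCs shares were again all above GL261 and in the order of the levels, a mean difference of 13.8 percentage points (exact permutation p = 0.133, adjusted 0.222). Sox4 had a UMI in 42.0% and 40.7% of GL261 cells and in 39.1%, 38.5%, 34.0% and 35.8% of GL261-GSCs cells, with free RNA at 1.05% to 2.90%, a mean difference of −4.51 percentage points (exact permutation p = 0.133, adjusted 0.222). No GL261-GSCs library reached the lower GL261 share of Sox4.

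Without thinning the Sox4 shares were 86.5% and 85.7% for the GL261 libraries, against 89.8%, 85.3%, 76.8% and 68.0% for GL261-GSCs. They overlapped between the groups, and within GL261-GSCs they had the order of the median depth. Unthinned Sox2 was seen in 48.1% and 43.5% of GL261 cells and in 58.9%, 69.9%, 65.7% and 52.7% of GL261-GSCs cells, and unthinned Sox6 in 74.9% and 73.6% against 83.8%, 82.6%, 85.4% and 84.5%. Sox5 was a gene of few cells, with a UMI in 0.874% and 0.700% of thinned GL261 cells and in 0.0704%, 0.204%, 0.935% and 2.73% of thinned GL261-GSCs cells, against 0.000791% to 0.0765% for free RNA (exact permutation p = 1).

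**Figure D3:**
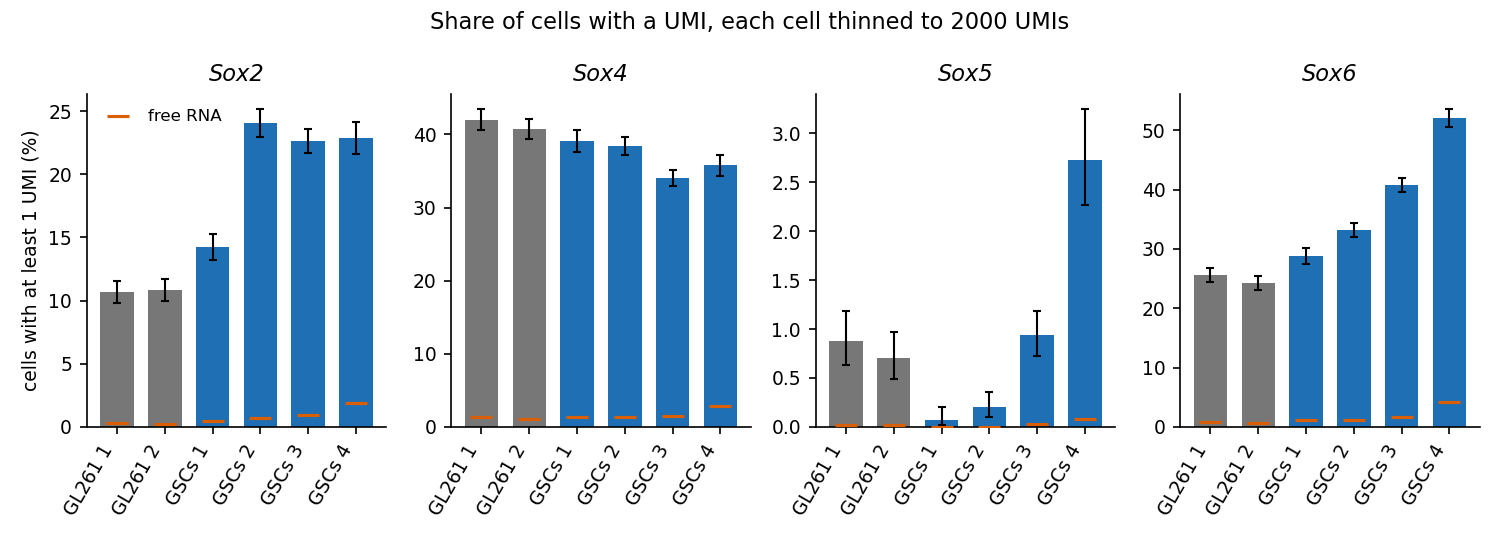
Share of called cells with at least 1 UMI of Sox2, Sox4, Sox5 and Sox6 (y axis, percent, a scale of its own in each panel) after thinning each cell to 2000 UMIs, in the GL261 (grey) and GL261-GSCs (blue, labelled GSCs) libraries. Error bars are exact 95% binomial intervals, which cover counting error only, and orange marks give the share expected from free RNA. Sox2 and Sox6 bars of GL261-GSCs all stand above those of GL261, from 14.2% to 24.0% and from 28.8% to 52.1%, and the Sox4 bars all stand below.

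A thinned cell held on average 0.791 and 0.764 of the 8 members in GL261, against 0.822, 0.959, 0.984 and 1.13 in GL261-GSCs. The groups did not overlap, with means of 0.778 ± 0.0190 (SD, n = 2) and 0.975 ± 0.128 (SD, n = 4; exact permutation p = 0.133). They did overlap in every other setting tried. Without thinning, GL261-GSCs replicate 4 (2.11) was below GL261 replicate 1 (2.14). GL261-GSCs replicate 1 was below GL261 replicate 1 after thinning to 1000 UMIs (0.457 against 0.472). The same was so with all cells of at least 1000 UMIs (0.385 against 0.393) and with a UMI minimum of 20% (0.791 against 0.797). Cells with none of the members made up 39.0% and 39.9% of GL261 and 37.5%, 31.4%, 30.7% and 23.5% of GL261-GSCs cells, and no cell held more than 4.

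Members that were seen in the same cell were counted against the product of their shares in each library, as a description. Sox2 and Sox4 were seen together 1.03 to 1.11 times as often as that product, from 234 to 601 cells per library. The ratio was 0.945 to 1.14 for Sox2 with Sox6 and 0.948 to 1.04 for Sox4 with Sox6. The pairs with Sox5 rested on few cells and spread widely, from 1.0 to 2.31 with Sox6 (2 to 86 cells), 0.669 to 2.35 with Sox2 (1 to 23 cells) and 0.852 to 1.33 with Sox4 (1 to 39 cells). The 3 pairs seen in over 100 cells of every library thus had ratios near 1.

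Within each library, the 25% of cells with the largest share of UMIs in 20 G2/M genes (a range of a score, not a cell type) were set against the other cells. No member is in that list, and the CPM of this comparison are per 1e6 UMIs of the cells concerned, without TMM scaling. Sox4 was lower in the G2/M-high cells of every library, at 307.2 against 339.8 CPM and 277.5 against 303.8 CPM in GL261, and at 231.1 against 274.2, 220.9 against 288.8, 188.8 against 228.4 and 189.5 against 270.0 CPM in GL261-GSCs. The mean log2 ratio was −0.28 ± 0.15 (SD, n = 6), lower in 6 of 6 libraries (exact sign-flip permutation test, 2-sided p = 0.03125, the smallest that 6 libraries allow, and 0.0938 adjusted over 3 members). G2/M-high cells were also the deeper ones, with a median of 7654 to 17425 UMIs per library against 6414 to 15146 in the others. After thinning all cells to 2000 UMIs the mean log2 ratio of Sox4 was −0.35. With only the top 10% of cells taken as G2/M-high it was −0.14, lower in 5 of 6 libraries, with 0.02 in GL261 replicate 2 (adjusted exact permutation p = 0.188, and 0.0469 to 0.188 over the alternatives).

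The ratios of Sox2 did not overlap between the groups. In GL261 it was higher in G2/M-high cells, at 78.8 against 57.7 and 79.9 against 55.4 CPM, log2 ratios of 0.45 and 0.53. In GL261-GSCs the ratios were 0.02, 0.02, −0.12 and −0.35. No GL261-GSCs ratio reached the GL261 ratios, and the difference of the means was −0.60 (exact permutation p = 0.133, the smallest possible, 0.2 adjusted over 3 members). Over all 6 libraries the mean was 0.09 ± 0.34 (SD, n = 6; exact sign-flip permutation p = 0.4375, higher in 4 of 6). For Sox6 the mean was −0.11 ± 0.18 (SD, n = 6; exact sign-flip permutation p = 0.0938, 0.141 adjusted, lower in 5 of 6), with the lowest ratio, −0.47, in GL261-GSCs replicate 4. After thinning to 2000 UMIs the mean of Sox6 was −0.03, lower in 3 of 6 libraries, and that of Sox2 was 0.07, with 0.25 and 0.70 in GL261 and −0.53 to 0.16 in GL261-GSCs. All 20 G2/M genes were tested between the groups and 3 were called, Anln, Prc1 and Kif23, each of them lower in GL261-GSCs. The median of the 20 was −0.14 (log2), and of all tested genes 29.9% were called, 14.1% lower.

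**Figure D4:**
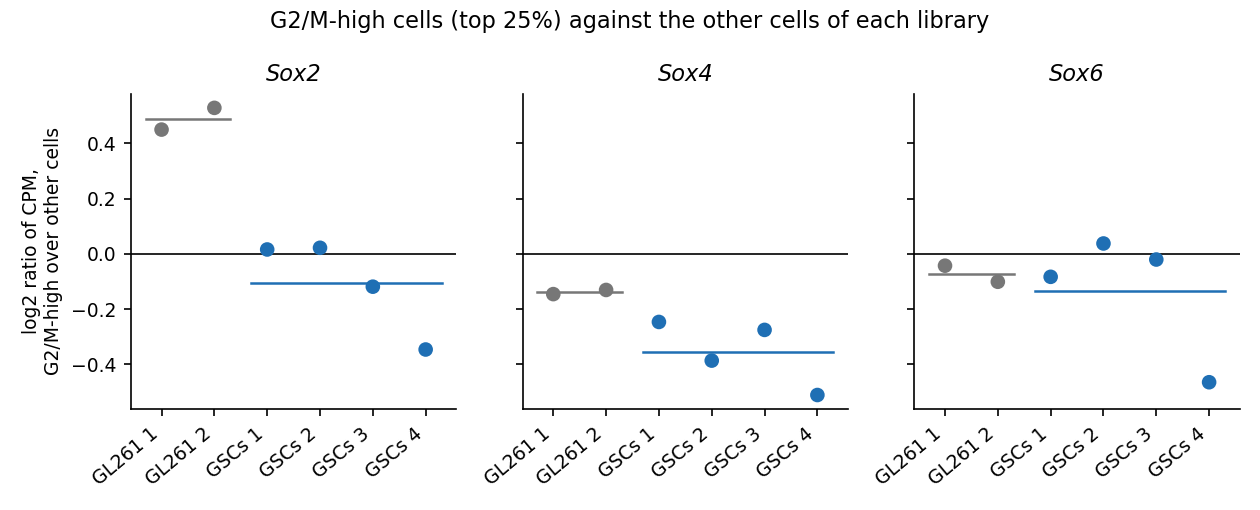
Log2 ratio of the CPM of Sox2, Sox4 and Sox6 in the 25% of cells with the highest G2/M share over that in the other cells (y axis), per library of GL261 (grey) and GL261-GSCs (blue, labelled GSCs), with group means as lines. All 6 points of Sox4 lie below 0, and those of Sox2 lie at 0.45 and 0.53 in GL261 and from −0.35 to 0.02 in GL261-GSCs.

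Factors known to work beside Sox proteins were read from the same fit. Of 18 listed, 16 were tested, 4 were higher in GL261-GSCs, 2 were lower and 10 were not called, with a median log2 fold change of 0.51. The share to set beside this and the target lists below is 29.9% of all tested genes called, 15.8% higher and 14.1% lower. Olig2 and Olig1, factors of the oligodendrocyte lineage, were at most 0.918 and 1.30 CPM in GL261 and at least 401.2 and 383.6 CPM in every GL261-GSCs library (log2 fold changes 10.18, SE 1.17, and 10.10, SE 1.31, edgeR adjusted p = 0.00132 and 0.00208). Those GL261 levels are of replicate 1, and in replicate 2 both genes were at 0.0166 CPM, that of 1 UMI. The log2 fold changes of Olig2 and Olig1 were 9.24 and 9.14 without GL261 replicate 2 and 14.87 and 15.27 without GL261 replicate 1, where they rest on that 1 UMI. Chd7, a chromatin remodeller that binds with Sox2 and is mutated in CHARGE syndrome, averaged 9.99 ± 4.48 CPM (SD, n = 2) in GL261 and 152.4 ± 50.2 CPM (SD, n = 4) in GL261-GSCs, with a log2 fold change of 3.93 (SE 0.45, edgeR adjusted p = 0.00131).

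Hes1, the Notch-responsive repressor, averaged 34.6 ± 1.36 CPM (SD, n = 2) in GL261 and 1.90 ± 1.17 CPM (SD, n = 4) in GL261-GSCs, with a log2 fold change of −4.17 (SE 0.47, edgeR adjusted p = 0.00125), and Nfix fell by 0.71 on the log2 scale (SE 0.18, edgeR adjusted p = 0.0286). The call of Nfix was lost with library size scaling (adjusted p = 0.0684) and without GL261 replicate 1 or 2 (0.108 and 0.214). The fourth factor that rose was Hes5, another Notch-responsive repressor, with 5 UMIs in GL261 and 578 in GL261-GSCs. The POU factors that pair with Sox2 and Sox11 on neural enhancers were not called. Pou3f2 had a log2 fold change of 0.04 and Pou3f3 one of 1.06 (SE 0.36 and 0.51, edgeR adjusted p = 0.948 and 0.160), and Pou3f4 was at 0. These POU factors, and Hes5, are named after their values were seen.

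Genes reported as targets of SoxB1 factors in neural stem cells moved both ways. Of 15 listed 11 were tested, 2 were higher, 4 lower and 5 not called, with a median log2 fold change of −0.50. Fabp7, a lipid-binding protein of radial glia, was at 0.0663 and 0.0741 CPM in GL261 and at 49.6 to 76.6 CPM in GL261-GSCs (log2 fold change 9.87, SE 0.35, edgeR adjusted p = 2.99e-05), and Prox1 rose by 5.43 on that scale (SE 1.44, edgeR adjusted p = 0.0300). Nes, the intermediate filament nestin that is the usual progenitor marker and carries a Sox2-bound enhancer, averaged 1224 ± 58.3 CPM (SD, n = 2) in GL261 and 427.4 ± 118.3 CPM (SD, n = 4) in GL261-GSCs, with a log2 fold change of −1.52 (SE 0.25, edgeR adjusted p = 0.00523). Vim and Notch2 fell by 1.66 (SE 0.14) and 1.03 (SE 0.15) on the log2 scale (edgeR adjusted p = 0.000386 and 0.00356). The fourth gene that fell was Hmga2. Without GL261 replicate 2 the adjusted p of Nes was 0.0520, and the call of Prox1 was lost without either GL261 library (0.169 and 0.180) and with limma-voom (0.111).

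Of 10 neuronal genes reported as SoxC targets 7 were tested and 1 was called. Map2, a microtubule protein of dendrites, averaged 22.6 ± 4.23 CPM (SD, n = 2) in GL261 and 121.4 ± 32.9 CPM (SD, n = 4) in GL261-GSCs, with a log2 fold change of 2.43 (SE 0.30, edgeR adjusted p = 0.00179), which is also the list's median, the same with the gene at 0 in GL261 set to its bound of 3 UMIs over the group. The genes above that median, Elavl4, Robo2 and Stmn2, had 0, 1 and 1 UMI in GL261. None of them was called (edgeR adjusted p = 0.107, 0.120 and 0.0932). Tubb3, a neuronal tubulin named here as the standard SoxC target, had a log2 fold change of −2.16 (SE 0.91, edgeR adjusted p = 0.117), and Dcx had 2 UMIs in all.

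Of 15 glial and cartilage genes reported as targets of SoxE and SoxD factors 13 were tested, 5 were higher in GL261-GSCs, 2 lower and 6 not called, with a median log2 fold change of 0.74. Col9a1, a cartilage collagen chain, was at 3.10 and 4.65 CPM in GL261 and at 67.5 to 147.5 CPM in GL261-GSCs (log2 fold change 4.91, SE 0.42, edgeR adjusted p = 0.000430). Pdgfra, the growth factor receptor of oligodendrocyte precursors, was at 4.84 and 7.97 against 56.7 to 181.9 CPM (4.27, SE 0.61, edgeR adjusted p = 0.00308). Mbp, a myelin protein gene, fell by 1.94 on the log2 scale (SE 0.31, edgeR adjusted p = 0.00480). The adjusted p of Mbp was 0.0538 without GL261 replicate 2. Also called were Col9a2 and S100b, higher, and Comp, lower, which lost its call without GL261 replicate 1 or 2 (adjusted p = 0.128 and 0.163) or GL261-GSCs replicate 2 or 3 (0.0554 and 0.0669).

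The genes that surround the 8 members were read from the same fit. Within 1 Mb of a member 87 genes were tested and 24 called, 27.6%, near the 29.9% of all genes. Around Sox2, 5 of 14 tested neighbours were called, all higher in GL261-GSCs and all noncoding or unclassified transcripts, Sox2ot among them. Of the called ones Gm20515, Gm38505 and Gm42692 lie inside the annotated span of Sox2ot, so they are not separate loci. Gm38505 and Gm42692 are named for their position only. Gm20515, a lincRNA 215.3 kb from Sox2, was at 0.518 and 0.580 CPM in GL261 and at 4.43, 6.45, 10.4 and 10.6 CPM in GL261-GSCs. Its log2 fold change was 3.86 (SE 0.48, edgeR adjusted p = 0.00177), and its values had the order of Sox2ot. None of the 5 tested neighbours of Sox4 and none of the 4 of Sox3 was called.

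Around Sox9, itself at 0, all 8 protein-coding neighbours were tested, and 7 of the 10 tested genes of any kind were called, 2 higher and 5 lower. Sstr2, a somatostatin receptor 831.6 kb away, fell by 3.48 on the log2 scale (SE 0.36, edgeR adjusted p = 0.000804). Around the other members at 0, 2 of 5 tested neighbours of Sox11 and 3 of 13 of Sox21 were called. Rsad2, an interferon-induced gene 877.8 kb from Sox11, rose by 2.30 (SE 0.51, edgeR adjusted p = 0.0166), and Cldn10, a tight junction gene 550.9 kb from Sox21, rose by 2.68 (SE 0.55, edgeR adjusted p = 0.0125). No gene within 250 kb of Sox9 or Sox11 was tested. Around the SoxD genes 4 of 15 and 3 of 21 neighbours were called, led by Lrmp beside Sox5 (log2 fold change 1.43, SE 0.18, edgeR adjusted p = 0.00165) and Plekha7 beside Sox6 (1.57, SE 0.36, edgeR adjusted p = 0.0189). Without GL261 replicate 1 or 2 the calls of Cldn10 (adjusted p = 0.0997 and 0.108) and Plekha7 (0.137 and 0.122) were lost, and without replicate 2 that of Rsad2 (0.113).

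For each tested member, the 2 genes whose log2 CPM, centred on their mean, lay nearest to it over the 6 libraries were found. The search covered 9110 genes with an average log2 CPM of at least 3, with predicted genes, mitochondrially encoded genes and members left out. The measure of distance was the root mean square difference. Nearest to Sox2 were Rnf144a, a ubiquitin ligase gene that is also one of the called neighbours of Sox11, at 0.0886, and Gpsm2, a spindle orientation protein, at 0.0946. Gpsm2 lies like Sox2 on chromosome 3 and had the same low replicate 1, with 34.0 CPM there and 70.3, 60.8 and 54.9 CPM in the other GL261-GSCs libraries. Nearest to Sox4 were Laptm4a (0.0479), a lysosomal membrane protein gene, and Zfp846 (0.0483). Laptm4a was at 509.2 and 489.1 CPM for GL261 and at 373.0, 372.7, 331.9 and 314.8 CPM for GL261-GSCs. Nearest to Sox6 were Trerf1 (0.0519), a transcriptional regulator, and Ppp2r3a (0.0609), a phosphatase subunit, both highest in GL261-GSCs replicate 4, at 39.1 and 24.8 CPM.

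Sox5 had no gene as near among those 9110. Its own level, at means of 3.75 CPM in GL261 and 3.15 CPM in GL261-GSCs, lies below the limit of that search. Genes at the level of Sox5 were therefore not compared with it. Has2, a hyaluronan synthase, was nearest at 0.857, followed by Tmem2, a cell-surface hyaluronidase, at 0.940. Has2 was at 59.1 and 77.0 CPM in GL261 and at 7.46, 14.6, 42.8 and 53.8 CPM in GL261-GSCs, low in replicates 1 and 2 as Sox5 was but never above GL261. The log2 fold changes of Has2 and Tmem2 were −1.20 and −0.73, and neither was called in the edgeR fit used throughout (adjusted p = 0.237 and 0.433, and from 0.000698 and 0.00626 upward over the alternatives with all 6 libraries). Without GL261-GSCs replicates 3 and 4 both were (0.00534 and 0.0207), and without replicates 1 and 2 Has2 was (0.0421), each from edgeR.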

How the data were processed

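Droplet single-cell libraries were made with a 5′ kit, per the labels' protocols. The authors deposited raw counts of UMIs per gene and barcode, made with Cell Ranger 4 per the file headers and on mm10 per the submitters' processing notes. No source used here gives the annotation release, and 99.9% of gene identifiers matched GENCODE M21, which gave positions and biotypes. A cell was a barcode with at least 10% of the 99th percentile of UMIs among the 3000 largest barcodes, at least 500 genes and at most 10% mitochondrial UMIs. No doublet caller was run. UMIs were summed over cells per library and tested with edgeR 4.0.16 (quasi-likelihood, TMM, filterByExpr, Benjamini-Hochberg over all tested genes), and CPM are UMIs per 1e6 UMIs of the TMM-scaled library (in the G2/M comparison, of the cells' own UMIs). DESeq2 1.42.0, limma-voom 3.58.1 and other scalings, filters and cell limits were alternatives. Scripts were tested on simulated counts. Shares and G2/M ratios were tested by exact permutation over libraries (scipy 1.17.1). Floors are 3 UMIs, and intervals cover counting error only.

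The 8 members, the gene lists and the comparisons were chosen with earlier results of these data known, so no list was tested as a set. Named genes were the members, other Sox genes with at least 10 UMIs, transcripts overlapping a member, up to 3 called genes per direction and list by smallest p, 1 called neighbour per member and the 2 genes most like each tested member. Others were named outside these rules, among them Malat1, Neat1, Hes5, the POU factors, Hmga2, Elavl4, Robo2, Stmn2, Col9a2, S100b, Gm38505 and Gm42692. A gene called in a list may be counted there and not reported here by name.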

Additional observations from a re-analysis of the deposited data

Results flagged for a closer look

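In 16 groups of library values checked for a sample far from its group, 2 stood out, and chance alone flags about 5% of such groups. Both were GL261-GSCs replicate 1 for Sox2. Its level was 81.7 CPM, and the gap to the next library took up 0.833 of the range of the 4 GL261-GSCs libraries. Its share of thinned cells with a Sox2 UMI was 14.2%, with a gap of 0.858 of the range. The 2 values come from the same cells and are not independent of each other.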

How the results depend on the processing

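The fit of all 6 libraries called 5514 genes, 2 Sox members and 22 genes of the 5 context lists (other Sox genes, partner factors and the 3 target lists). Sox2 kept its direction under all 18 alternatives and its call in 10, and Sox4 likewise. Leaving out 1 library at a time gave 1817 to 6193 genes, 0 to 2 members and 14 to 28 list genes, the counts of 1817 and 1972 coming without GL261 replicate 2 or 1, fits in which the lone GL261 library is assumed to vary like the others. DESeq2 called 6760 genes and both members. Scaling by library size left 1 member called (Sox2), no low-count filter 1 (Sox2), and cells of 5000 to 15000 UMIs 1 (Sox4). Without GL261-GSCs replicates 1 and 2 there were 9881 genes and 37 list genes called, and without replicates 3 and 4 there were 35 list genes. The last 3 settings were chosen after seeing the data. Deviations from the group means of same-numbered libraries had correlations of −0.026 and 0.037. With 2 GL261 libraries the deviations of that group mirror each other, so these values cannot settle whether replicate numbers pair the libraries. A fit with a replicate block called 6512 genes, 35 list genes and 1 member, which was Sox5 (log2 fold change −3.52, edgeR adjusted p = 0.00666, against 0.00666 to 0.970 over the alternatives with all 6 libraries), since only GL261-GSCs replicates 1 and 2 then have a GL261 partner. In that fit the adjusted p was 0.0548 for Sox2 and 0.0592 for Sox4. Sox5 was called under 2 of the 18 alternatives, the block fit being 1 of them.

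Signs turned for genes that were not called. The log2 fold change of Sox5 was 0.66 without GL261-GSCs replicates 1 and 2, and −1.36 to 0.15 when single libraries were left out. That of Sox10 was 0.14 with library size scaling, 0.11 with the block, 0.0049 with a mitochondrial limit of 5%, 0.086 in cells of 5000 to 15000 UMIs, 0.11 without GL261-GSCs replicates 3 and 4, and −0.069 to 0.054 when single libraries were left out. The group difference in cells with a Sox5 UMI was −1.82 percentage points without thinning, −0.0254 with a UMI minimum of 20%, and −0.383 to 0.502 when single libraries were left out. With the G2/M-high cells taken as the top 10% the log2 ratio of Sox6 was 0.043, and with 50% of cells on each side those of Sox4 and Sox6 were −0.49 and −0.19, both then at an adjusted exact permutation p of 0.0469. The cause of these changes was not tested. Where the deposited rows are complete, depth limits the members at 0, for which up to 3 UMIs per library cannot be told from none, and with 2 GL261 libraries no exact test of the groups could pass 0.05.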
